A study of Danio rerio with 7 samples.

Results

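The Hox genes are described here in crest of the first pharyngeal arch stream of zebrafish. Members were all genes whose symbol starts with hoxa, hoxb, hoxc or hoxd followed by a number. The tables hold 32 of them among 19648 genes, all 32 in the timeline table and 17 in the table of the second 18 hpf library, where the other 15 members were not analysed. Embryos of 7 samples carried Tg(sox10:nEOS)w18, a photoconvertible nuclear protein driven by sox10, on the AB strain. Cells of the first arch stream were photoconverted within a drawn region, dissociated, sorted as neural crest (NC) cells and run on a droplet platform. The 6 timeline libraries, of 12, 14, 18, 20, 24 and 30 hours post-fertilisation (hpf), were made with chemistry version 2, and the second 18 hpf library with version 3. No embryo was mutant or drug treated, and each age had 1 library apart from that second one, so no 2 ages can be tested against each other.

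Hox genes encode homeodomain transcription factors that give cells their position along the head-to-tail axis. They lie in clusters, and members at like places in different clusters form paralogue groups, numbered from the head end. Crest of the first arch, which builds the jaws, is known for lacking Hox transcripts, whereas crest of the hyoid (the next) arch carries group 2. Loss of group 2 function turns hyoid skeleton towards a jaw pattern in zebrafish and mouse. Higher groups mark the caudal hindbrain, the branchial arches and the trunk.

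Cells were gated on transcripts. Ectomesenchyme, the skeletal branch of arch crest, was taken as cells with at least 1 unique molecular identifier (UMI, a tag that counts a captured transcript once) of both dlx2a and twist1a. The other gates held cells with at least 1 UMI of gch2 (a pteridine synthesis enzyme of pigment cells), prdm12b (a regulator known in sensory neurons), elavl3 (an RNA-binding protein of neurons) or pax1b (a factor of pouch endoderm). Gates may overlap, and 126 of the 178 prdm12b cells of the second 18 hpf library were also ectomesenchyme. Of 2845 cells used, 997 were ectomesenchyme, 231 pigment, 445 prdm12b, 146 elavl3 and 99 pax1b, while 1289 fell in no gate.

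The libraries held 131 to 970 cells with median depths of 10807.5 to 23209 UMIs, and 1 barcode was shared by any 2 libraries. A list of 8 ectomesenchyme markers gave 66.1 CPM (UMIs of a gene scaled to a library or gate total of 1e+06) in ectomesenchyme at 14 hpf, with 4 of the 8 detected. It gave 1355 CPM at 30 hpf, with all 8 detected, so the gate of 14 hpf shows little of the mature signature. All 5 early crest markers, such as sox10 and foxd3, were still detected in that gate at 14 hpf. Ectomesenchyme held 9.36 CPM or less of 8 pouch endoderm markers, against 1241 to 2361 CPM in the pax1b gate of libraries with at least 10 of its cells. Neuronal markers summed to 82.8 to 261 CPM in ectomesenchyme and 332 to 2912 CPM in the elavl3 gate. The 12 hpf library held 3 ectomesenchyme cells, none with a hox UMI, and is left out below unless named.

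Summed over the libraries, arch ectomesenchyme carried paralogue group 2 and almost no transcript of the other members. Its cells held 472 hox UMIs, of which 455 (96.4%) belonged to hoxa2b and hoxb2a, the members of group 2 in these tables. hoxa2b, which selects hyoid identity in zebrafish, gave 262 UMIs in 74 cells, and hoxb2a, its partner in that role, gave 193 UMIs in 70 cells. The remaining 17 UMIs were spread over 10 members with 1 to 5 each, the most being 5 of hoxc13a in 5 cells. The other 20 members, including all those of groups 1, 4, 5 and 12, had no UMI in any ectomesenchyme cell in which they were counted. Those absent from the second 18 hpf library, among them hoxd12a, the only member of group 12, were not counted in its 316 ectomesenchyme cells. A count of 0 sets a limit only, since 3 UMIs remain possible. The 96.4% is summed over libraries, and at 20 hpf 3 of the 4 hox-positive ectomesenchyme cells had no group 2 UMI.

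**Figure D1:**
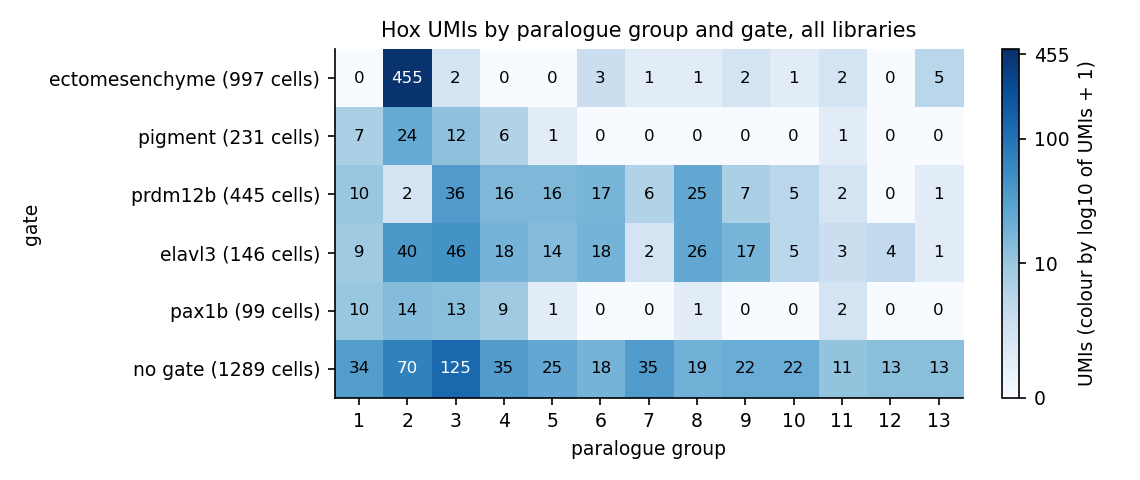
Hox UMIs summed over all 7 libraries by paralogue group (columns) and gate (rows), with the number of UMIs in each square and a colour scale by log10 of UMIs + 1. Ectomesenchyme holds 455 UMIs of group 2 and 0 to 5 of each other group, while cells in no gate hold 11 to 125 of every group. Gates may overlap, so a cell can count in several rows. A cell with 92 hox UMIs counts in both the elavl3 and the prdm12b row.

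The level of group 2 differed widely between libraries. hoxa2b stood at 15.4 CPM at 14 hpf (7 UMIs, 95% exact Poisson interval 6.20 to 31.8), 8.36 CPM at 18 hpf (10 UMIs, 4.01 to 15.4) and 0.176 CPM at 20 hpf (1 UMI, 0.00447 to 0.983). It stood at 20.1 CPM at 24 hpf (57 UMIs, 15.2 to 26.1) and 153 CPM at 30 hpf (147 UMIs, 129 to 180). The 20 hpf library thus lay below every other timeline library, and that of 30 hpf above them, by more than counting error. These intervals cover counting error only, since cells of 1 library are no replicates and PCR and capture differ between libraries.

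hoxb2a followed with 6.61 CPM at 14 hpf (3 UMIs, 1.36 to 19.3), 1.67 CPM at 18 hpf (2 UMIs, 0.203 to 6.04) and 0.176 CPM at 20 hpf (1 UMI). It reached 30.7 CPM at 24 hpf (87 UMIs, 24.6 to 37.9) and 86.3 CPM at 30 hpf (83 UMIs, 68.8 to 107). In the second 18 hpf library hoxa2b gave 4.23 CPM (40 UMIs, 3.02 to 5.76) and hoxb2a 1.80 CPM (17 UMIs, 1.05 to 2.88), with intervals that overlap those of the other 18 hpf library. The balance between them was uneven, with 0.655 hoxa2b UMIs per hoxb2a UMI at 24 hpf and 1.77 at 30 hpf.

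**Figure D2:**
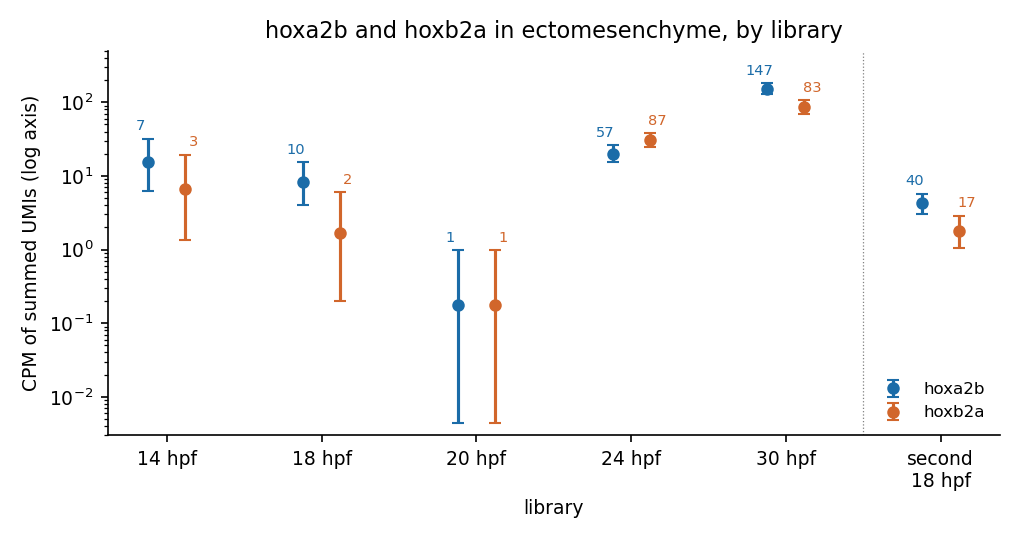
CPM of hoxa2b and hoxb2a (log axis) in summed ectomesenchyme of each library, with 95% exact Poisson intervals and the number of UMIs above each point. The 20 hpf library holds 1 UMI of each gene, and the 30 hpf library 147 and 83.

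A straight line of level on age was tested over the 5 timeline libraries of 14 to 30 hpf by edgeR's quasi-likelihood test with Benjamini-Hochberg adjustment over 6295 genes. Of the 32 members, 2 passed the filter on low counts, and 0 of these 2 passed the test, where 53 genes (0.842%) did among all tested. The self-test on simulated counts of this fit recovered 2 of 100 genes changed 2-fold over these ages and 19 of 100 changed 4-fold. A gene without a call here may thus still change with age. hoxb2a had a slope of 0.45 ± 0.11 log2 units per hour (SE, adjusted p = 0.113, unadjusted p = 0.00287) and hoxa2b of 0.35 ± 0.11 (SE, adjusted p = 0.191, unadjusted p = 0.00959). Both slopes were positive, although the 20 hpf library held the lowest level of either gene. With the second 18 hpf library added, hoxb2a passed (slope 0.48, adjusted p = 0.0334), and without the 30 hpf library the slope of hoxa2b was 0.08 (adjusted p = 0.877). Without the low-count filter both passed, of 8 members tested, where 420 of 15649 genes (2.68%) did. DESeq2, an alternative count test, called neither hoxa2b nor hoxb2a.

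Most ectomesenchyme cells were free of hox UMIs until 24 hpf. To set libraries of unlike depth side by side, each cell was thinned at random to 8000 UMIs and shallower cells were left out, which cost 1 to 8 cells per library. The hox-free share was then 91.4% at 14 hpf (32 of 35 cells, 95% Clopper-Pearson interval 76.9 to 98.2), 97.4% at 18 hpf (74 of 76, 90.8 to 99.7) and 99.3% at 20 hpf (278 of 280, 97.4 to 99.9). It was 87.1% at 24 hpf (169 of 194, 81.6 to 91.5) and 47.9% at 30 hpf (34 of 71, 35.9 to 60.1). Hox-free cells were thus the large majority in every library but that of 30 hpf, whose interval does not touch the others given. The intervals cover the sampling of cells only, since cells of 1 library are no replicates. In the second 18 hpf library 96.8% were free (305 of 315, 94.2 to 98.5), close to the 18 hpf library of the timeline. Without thinning the shares were 92.3%, 95.1%, 98.6%, 85.6% and 45.2% for 14 to 30 hpf and 94.3% for the second 18 hpf library. Counting a cell as free says that no hox UMI was caught in it, not that it lacked Hox RNA.

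Free RNA in droplets can give a cell a UMI of a gene it does not express, so blood and vessel cells served as background. In the second 18 hpf library, 5.70% of ectomesenchyme cells held a hox UMI (18 of 316), against 11.3% of cells with myeloid markers (18 of 159) and 5.88% of cells with endothelial markers (6 of 102). Without thinning, the share in ectomesenchyme of that library was thus not above that of these cells for Hox genes as a whole. Thinned as above, 96.8% of ectomesenchyme, 95.6% of myeloid and 97.9% of endothelial cells were hox-free, with overlapping intervals. Of the 18 hox-positive myeloid cells 11 held hoxb7a (14 UMIs), against 1 UMI of it in 316 ectomesenchyme cells. How much of the myeloid share is free RNA was not tested, so no background level for Hox genes as a whole is set. Group 2 was different, as 9 of these 316 ectomesenchyme cells held 40 hoxa2b and 17 hoxb2a UMIs, against 0 in the 159 myeloid and 102 endothelial cells. Median depth in that library was 29276.5 UMIs in ectomesenchyme, 27198 in myeloid and 19719 in endothelial cells. In every library, myeloid and endothelial cells together held no group 2 UMI (0 in 270 and 164 cells). Few of these cells came from the 2 libraries with the highest group 2 levels. There were 8 myeloid and 7 endothelial cells at 24 hpf, and 7 and 0 at 30 hpf. The 0 of 7 myeloid cells at 30 hpf allows a share with a hox UMI of up to 41.0%, so the background of group 2 is little known there. Elsewhere their hox UMIs were few, with 1 of 43 myeloid cells at 18 hpf, 1 of 15 endothelial cells at 20 hpf, and none in the other timeline libraries.

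Within positive cells, group 2 UMIs came several to a cell. At 30 hpf, 35 of the 40 hox-positive ectomesenchyme cells held 3 or more hox UMIs, with a median of 5 and a maximum of 13. At 24 hpf 20 of 29 did, with a median of 4 and a maximum of 11. The second 18 hpf library had 8 such cells of 18 and 10 with a single UMI, and 9 of its 18 positive cells had no group 2 UMI. A handful of cells thus carried nearly all group 2 transcripts of that library, and at 20 hpf no cell held 3 or more.

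Both paralogues were found in the same cells. At 30 hpf 32 cells held hoxa2b and hoxb2a, 4 hoxa2b alone, 3 hoxb2a alone and 34 neither. At 24 hpf the counts were 20, 1, 6 and 175 in the same order, and in the second 18 hpf library 5, 4, 0 and 307. Cells with hoxb2a alone were thus more common than cells with hoxa2b alone at 24 hpf, which goes with the higher hoxb2a level there. Hox-positive ectomesenchyme was the deeper class in 4 of 6 libraries. Median depth was 14920, 13365.5, 19283.5, 15228 and 14307.5 UMIs in hox-positive cells at 14, 18, 20, 24 and 30 hpf, against 11454, 14532, 20171.5, 13622 and 12657 UMIs in hox-free cells. It was 35340 UMIs in hox-positive and 29106.5 in hox-free cells of the second 18 hpf library, and the part of depth beyond thinning was not tested.

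**Figure D3:**
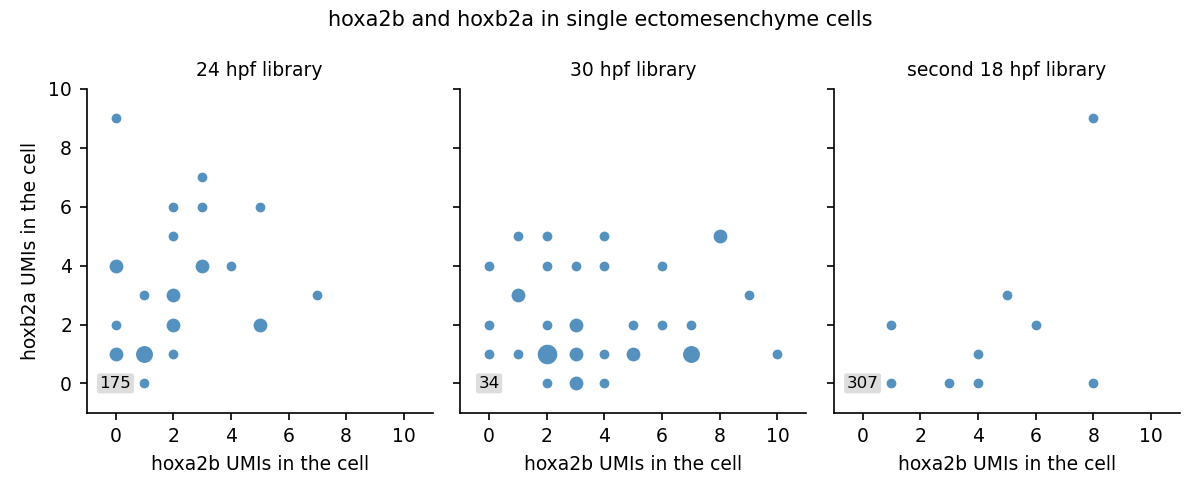
hoxa2b UMIs against hoxb2a UMIs in each ectomesenchyme cell of the 24 hpf, 30 hpf and second 18 hpf libraries. Dot area is proportional to the number of cells, and the grey label at the origin gives the cells with neither gene, 175, 34 and 307.

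Hox-positive cells were found at 24 and 30 hpf among cells with hand2, cells with dlx5a or dlx6a but no hand2, and cells with none of these. The last class had no dorsal marker of its own, and a cell may fall in it because such a UMI was not caught. The arch is patterned from ventral to dorsal by hand2, a basic helix-loop-helix factor of the ventral domain, and by dlx5a and dlx6a, homeobox genes of the ventral and intermediate domains. At 30 hpf a hox UMI was held by 75% of hand2 cells (18 of 24, Clopper-Pearson interval 53.3 to 90.2), 51.9% of cells with dlx5a or dlx6a but no hand2 (14 of 27, 32.0 to 71.3) and 36.4% of cells with none of these (8 of 22, 17.2 to 59.3). At 24 hpf it was held by 27.9% of hand2 cells (12 of 43, 15.3 to 43.7), 11.8% of dlx5a or dlx6a cells (8 of 68, 5.22 to 21.9) and 9.89% of the rest (9 of 91, 4.62 to 18.0). The order was the same at both ages. The intervals overlap at each age, and the difference between these classes was not tested. These shares are without thinning. With cells thinned as above they were 62.5% (15 of 24), 53.85% (14 of 26) and 38.1% (8 of 21) at 30 hpf, classes in the same order. At 24 hpf they were 29.3% (12 of 41), 9.09% (6 of 66) and 8.05% (7 of 87). The order thus held, but hand2 cells lay closer to dlx5a or dlx6a cells after thinning at 30 hpf, though not at 24 hpf. In the second 18 hpf library, where 2 cells held hand2, 8.40% of dlx5a or dlx6a cells (11 of 131) and 3.83% of those with neither (7 of 183) had a hox UMI. All 17 hoxb2a UMIs and 39 of the 40 hoxa2b UMIs of that library lay in its dlx5a or dlx6a cells.

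Hox-positive ectomesenchyme was then compared with hox-free ectomesenchyme for every other gene, to see what goes with a Hox transcript in arch crest. Raw counts were summed per library and class wherever a library had 10 or more cells of each class, which left 3 libraries. A cell's class was read after thinning to 8000 UMIs. These were 25 against 169 cells at 24 hpf, 37 against 34 at 30 hpf and 10 against 305 in the second 18 hpf library. In that last library 96.8% of thinned cells were free of any hox UMI and 98.1% free of group 2. Some of its 10 hox-positive cells thus had no group 2 UMI after thinning. Hox genes were left out, and edgeR's quasi-likelihood test was run with library as a block. Of 4283 genes, 56 passed an adjusted p of 0.05 (1.31%), 22 of them higher (0.514%) and 34 lower (0.794%) in hox-positive cells, and 48 of the 56 had the same direction in all 3 libraries. The self-test on simulated counts of this comparison recovered 73 of 100 genes changed 2-fold and 99 of 100 changed 4-fold. Without the library block no gene passed, although 39 had an unadjusted p under 0.05, and DESeq2 with the block called 20 genes. Counting group 2 alone dropped the second 18 hpf library, and 79 genes passed on the 2 libraries left.

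Meis genes, whose homeodomain proteins bind DNA together with Hox proteins, led the rise. meis1a stood at 198 CPM in hox-positive cells at 24 hpf (77 UMIs), against 0 UMIs in hox-free cells of that library, which makes it at least 157-fold higher over a floor of 3 UMIs. At 30 hpf it had 226 CPM in hox-positive and 22.6 CPM in hox-free cells, and in the second 18 hpf library 89.5 CPM in hox-positive and 1.21 CPM in hox-free cells (30 and 11 UMIs). It was thus higher in hox-positive cells of every library, and the fitted change was 5.86 ± 0.48 on the log2 scale (SE, adjusted p = 2.74e-06). meis1b, its close relative, had 97.6, 81.4 and 86.5 CPM in hox-positive cells of the 24 hpf, 30 hpf and second 18 hpf libraries, against 4.61, 31.6 and 1.32 CPM in hox-free cells, a change of 4.15 ± 0.55 (SE, adjusted p = 0.00033). Of the 13 Hox cofactors in the list, 5 were tested and these 2 rose, where 22 of 4283 did among all genes. The median of the 5 was 0.23 on the log2 scale, beside 0.00 for all genes tested. pbx4, the most abundant Pbx partner here, had 180, 177 and 89.5 CPM in hox-positive cells of the 24 hpf, 30 hpf and second 18 hpf libraries, against 146, 162 and 116 CPM in hox-free cells, a change of 0.07 ± 0.15 (SE, adjusted p = 0.96). meis2a was too sparse to be tested, with 2, 26 and 5 UMIs in hox-positive cells of these libraries against 0, 0 and 36 UMIs in hox-free cells.

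Zinc finger repressors of the NET family, znf503 and znf703, known in zebrafish for hindbrain patterning, also rose. znf503 had 30.8, 91.3 and 26.8 CPM in hox-positive cells of the 24 hpf, 30 hpf and second 18 hpf libraries, against 1.26, 2.26 and 5.16 CPM in hox-free cells, a change of 3.41 ± 0.45 (SE, adjusted p = 0.00033). znf703 changed by 2.99 ± 0.49 (SE, adjusted p = 0.00248), on 9, 15 and 2 UMIs in hox-positive cells against 6, 1 and 11 UMIs in hox-free cells of these libraries. CR848683.2, for which no role is given here, rose by 2.77 ± 0.46 (SE, adjusted p = 0.0025). DESeq2 kept meis1a and znf503 but called neither meis1b, znf703 nor CR848683.2.

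In the list of 19 arch code genes 13 were tested, of which 3 rose (hand2, dlx1a and pou3f3b) and 1 fell (nr2f1a), with a median of 0.17 beside 0.00 for all genes. Of all 4283 genes tested 0.514% rose and 0.794% fell. hand2 and pou3f3b did not have the same direction in every library. pou3f3b, a POU-domain factor known in zebrafish for the gill cover that the hyoid arch builds, had 119 CPM in hox-positive and 15.8 CPM in hox-free cells at 30 hpf (60 and 7 UMIs). At 24 hpf it had 25.7 CPM in hox-positive and 2.94 CPM in hox-free cells (10 and 7 UMIs), and in the second 18 hpf library 0 UMIs in hox-positive and 2 in hox-free cells, with a fitted change of 2.92 ± 0.43 (SE, adjusted p = 0.000755). hand2 had 619 and 337 CPM in hox-positive cells at 24 and 30 hpf, against 53.7 and 248 CPM in hox-free cells, and 0 and 3 UMIs in these classes of the second 18 hpf library, a change of 2.11 ± 0.40 (SE, adjusted p = 0.00739). The hand2 call rested on the 24 hpf library, without which the change was 0.51 and did not pass. dlx1a, a Dlx homeobox gene, changed by 1.25 ± 0.20 (SE, adjusted p = 0.00218) with 182 CPM in hox-positive and 67.9 CPM in hox-free cells at 24 hpf, and likewise did not pass without that library, at 1.08. DESeq2 called neither hand2 nor dlx1a. barx1, a homeobox gene of cartilage precursors, had 855 and 363 CPM in hox-positive cells at 24 and 30 hpf, against 365 and 404 CPM in hox-free cells, and did not pass (adjusted p = 0.167). gsc, a homeobox gene of arch crest, was too sparse to be tested, but at 30 hpf it had 90 UMIs in hox-positive and 3 in hox-free cells.

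nr2f1a, a nuclear receptor gene known in zebrafish for the dorsal domain of the first arch, fell. It had 0 UMIs in hox-positive cells at 24 hpf against 34.4 CPM in hox-free cells (82 UMIs). At 30 hpf it had 17.9 CPM in hox-positive and 97.0 CPM in hox-free cells, and in the second 18 hpf library 0 UMIs in hox-positive and 67 in hox-free cells, a change of -2.89 ± 0.48 (SE, adjusted p = 0.0025). npb, which encodes neuropeptide B, had 33.4, 7.94 and 0 CPM in hox-positive cells of the 24 hpf, 30 hpf and second 18 hpf libraries, against 358, 31.6 and 13.9 CPM in hox-free cells, a change of -3.25 ± 0.30 (SE, adjusted p = 4.99e-06). It was thus lower in hox-positive cells of every library. The other falls of that size were col1a1b, a type I collagen chain (-3.15 ± 0.61, SE), msx3, a Msx homeobox gene (-2.62 ± 0.55, SE), and alcama, a cell adhesion molecule (-1.97 ± 0.33, SE), each with the same direction in all 3 libraries. DESeq2 called neither col1a1b nor msx3, and without thinning none of these 3 genes was called.

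The hindbrain, anterior and chromatin lists showed no call in this comparison, where 1.31% of all 4283 genes were called. With so few of their members tested, this says little about these lists. Of 16 hindbrain segment and retinoic acid genes 4 were tested, with 0 called and a median of -0.00. crabp2b, a retinoic acid binding protein, came nearest (-1.35 ± 0.35, SE, adjusted p = 0.0699). Of 10 anterior genes, such as otx2b and gbx2, 2 were tested, and of 13 chromatin regulators of Hox clusters, such as the Polycomb genes ezh2 and suz12b, 6 were tested, with 0 called in either. Most members of these lists had too few UMIs to be tested, so their levels in hox-positive cells stay unknown at this depth.

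**Figure D4:**
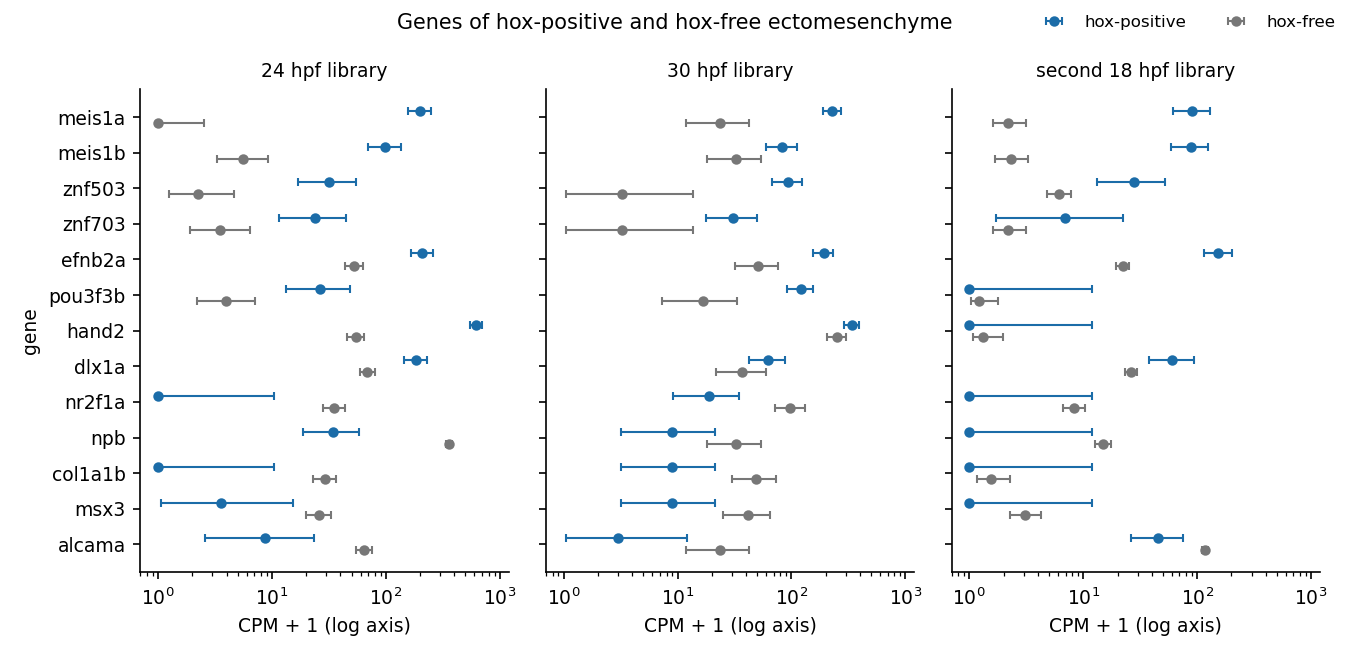
CPM + 1 (log axis) of 13 genes in hox-positive (blue) and hox-free (grey) ectomesenchyme of 3 libraries, with 95% exact Poisson intervals. meis1a, meis1b and efnb2a lie higher in hox-positive cells of each library, and hand2 does so at 24 and 30 hpf.

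Of 6 neural progenitor markers, her4.1 alone had enough UMIs to be tested. The 6 neural progenitor markers summed to 103, 15.9 and 98.4 CPM in hox-positive cells of the 24 hpf, 30 hpf and second 18 hpf libraries, against 62.5, 2.26 and 30.8 CPM in hox-free cells, but only 2, 1 and 2 of the 6 had any UMI in hox-positive cells. her4.1, a Notch target, was called higher (1.60 ± 0.27, SE, edgeR, adjusted p = 0.00278), and the part of these markers in the other changes was not tested. The 7 neuron markers summed to 134, 95.2 and 176 CPM in hox-positive cells, against 187, 111 and 181 CPM in hox-free cells of these libraries. Pouch endoderm, myeloid, endothelial, cardiac, epithelial and erythroid lists stayed at 17.9 CPM or less in both classes.

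Ectomesenchyme was next set against each other gate, in libraries with at least 10 cells of each gate and with cells of both gates left out. The comparisons share their ectomesenchyme cells and so are not independent. In the prdm12b comparison (5 libraries) 17 members entered and 1 passed the low-count filter. This was hoxa2b, higher by 5.05 ± 0.90 on the log2 scale (SE, edgeR's quasi-likelihood test, adjusted p = 0.00283), where 2.78% of all genes were called higher. It passed the filter only through ectomesenchyme, where it is high, so it could be called only higher and the call is a description. It had 7, 10, 1, 57 and 39 UMIs in ectomesenchyme at 14, 18, 20 and 24 hpf and in the second 18 hpf library, against 0, 1, 0, 0 and 0 UMIs in prdm12b cells. hoxb2a had 3, 2, 1, 87 and 17 UMIs in the same ectomesenchyme against 0 in prdm12b cells of every library, but was too sparse to pass the filter.

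In the pigment comparison (20 hpf, 24 hpf and second 18 hpf libraries) 0 of 17 members passed that filter, whereas 2578 of 8596 genes (30.0%) were called. At 24 hpf hoxa2b had 21.3 CPM in ectomesenchyme (interval 15.8 to 28.0) against 1.19 CPM in pigment cells (1 UMI, 0.0301 to 6.63), and hoxb2a 33.2 CPM (26.2 to 41.4) against 2.38 CPM (2 UMIs, 0.288 to 8.60). The second 18 hpf library had 36 and 16 UMIs of these genes in ectomesenchyme against 0 and 0 in pigment cells, and at 20 hpf there was 1 UMI of each in ectomesenchyme. Without the filter, edgeR called both genes higher (4.47 ± 0.98 and 3.87 ± 0.84, SE, adjusted p = 5.7e-05 and 5.11e-05). Of all 16318 genes 1760 were called higher there, and 22.7% were called in either direction. With so few UMIs in pigment cells both genes could be called only higher, so the calls are a description. hoxb3a went the other way, with 0 UMIs in ectomesenchyme at 20 and 24 hpf against 4 and 8 in pigment cells. Of the 8 at 24 hpf, 5 lay in a cell that was also in the pax1b gate. Without the filter hoxb3a was called lower (-6.02 ± 1.82, SE, edgeR, adjusted p = 0.00615), and it could be called only lower.

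Pigment-gated cells held 51 hox UMIs in 9 of 231 cells, ectomesenchyme overlap included. Of these, 24 were of group 2, 12 of group 3, 7 of group 1 and 6 of group 4. Most of the 24 lay in cells that were also ectomesenchyme. With those left out, pigment cells held 1 UMI of hoxa2b and 2 of hoxb2a at 24 hpf. They held 0 of either at 20 hpf and in the second 18 hpf library. The 7 UMIs of group 1 lay in 1 cell of the 24 hpf library, which was also in the pax1b gate. The pigment gate is mixed, since myeloid markers summed to at most 3.35 CPM in ectomesenchyme of the 20 hpf, 24 hpf and second 18 hpf libraries, against 233 to 740 CPM in pigment cells. Pouch endoderm markers summed to at most 4.86 CPM in ectomesenchyme of these libraries, against 60.0 to 401 CPM in pigment cells. Their part in the values above was not tested.

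Hox-positive cells took a lower share of ectomesenchyme than of elavl3 cells at 18 and 20 hpf. At 18 hpf a hox UMI was held by 4.88% of ectomesenchyme cells (4 of 82, Clopper-Pearson interval 1.35 to 12.0) and 43.8% of elavl3 cells (7 of 16, 19.8 to 70.1). At 20 hpf it was held by 1.42% of ectomesenchyme cells (4 of 282, 0.388 to 3.59) and 34.8% of elavl3 cells (8 of 23, 16.4 to 57.3). The intervals, which cover the sampling of cells only, do not overlap at either age. Ectomesenchyme was nevertheless deeper, with a median of 14522 UMIs at 18 hpf against 11592 in elavl3 cells. At 24 hpf 0 of 10 elavl3 cells held a hox UMI, which allows a share of up to 30.9%. Elsewhere 3 of 38 elavl3 cells held one at 12 hpf, 2 of 19 at 14 hpf and 1 of 7 at 30 hpf. The second 18 hpf library had 5.70% of ectomesenchyme cells and 12.1% of elavl3 cells (4 of 33, 3.40 to 28.2), with overlapping intervals. Together elavl3 cells held 203 hox UMIs, of which 40 were of group 2, 46 of group 3 and 26 of group 8, with at least 1 UMI of every group from 1 to 13. A single cell of the second 18 hpf library held 92 of these 203 UMIs, among them 22 of the 26 of group 8 and all 14 of group 5. In the second 18 hpf library pouch endoderm markers summed to 4.86 CPM in ectomesenchyme and 418 CPM in elavl3 cells, and their part was not tested.

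hoxb3a, a group 3 gene of the caudal hindbrain, was lower in ectomesenchyme than in elavl3 cells, with a change of -7.30 ± 1.98 on the log2 scale (SE, edgeR, adjusted p = 0.0384), a fitted value that depends on the prior count since ectomesenchyme held 1 UMI in all. It had 0 UMIs in ectomesenchyme against 5 in elavl3 cells at 18 hpf and 0 against 7 at 20 hpf, but 1 against 0 at 14 hpf. In the second 18 hpf library it had 0 against 18 UMIs, and 16 of the 18 lay in 1 cell. Of 17 members 2 were tested, and hoxb3a was called lower, where 7.96% of all genes were. It passed the filter only through elavl3 cells, so it could be called only lower and the call is a description. The call was lost in DESeq2 and without the library of 18 or of 20 hpf. hoxa2b had 7, 10, 1, 57 and 40 UMIs in ectomesenchyme at 14, 18, 20 and 24 hpf and in the second 18 hpf library (15.4, 8.56, 0.18, 20.1 and 4.39 CPM), against 2, 7, 14, 0 and 1 UMIs in elavl3 cells (8.91, 41.1, 55.9, 0 and 2.28 CPM), and did not pass (-1.47 ± 1.21, SE, adjusted p = 0.455). Its CPM was thus below that of elavl3 cells at 18 and 20 hpf and above it at 14 hpf and in the second 18 hpf library, where the intervals overlap. At 24 hpf the 0 UMIs of 10 elavl3 cells allow up to 37.8 CPM, so no order is shown.

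That cell, which held both elavl3 and prdm12b UMIs, had 22 UMIs of hoxb8a, 16 of hoxb3a and 15 of hoxb6b, and its 92 hox UMIs were among 229 in the whole library. Without the low-count filter 17 members were tested in each of the elavl3 and prdm12b comparisons. Of these, 7 were called lower in ectomesenchyme than in elavl3 cells, where 796 of 16115 genes were called lower and 10.4% in either direction. Against prdm12b cells 5 were called lower and 2 (hoxa2b and hoxb2a) higher, where 524 of 15952 genes were called lower and 6.03% in either direction. Members with few or no UMIs in ectomesenchyme could be called only lower, so their calls are a description. hoxb8a, hoxb3a, hoxb6b, hoxb5b and hoxc3a, called lower in both comparisons, owe at least 11 UMIs each to that cell.

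Pouch endoderm marked by pax1b held 50 hox UMIs in 6 of 99 cells, with 14 of group 2, 13 of group 3, 10 of group 1 and 9 of group 4. Every UMI of groups 1 to 4 lay in 1 cell at 20 hpf or in 2 cells at 24 hpf. At 24 hpf the 5 hoxb1b UMIs, the 2 of hoxc1a and 5 of the 6 of hoxb3a lay in pax1b cells that were also in the pigment gate. These UMIs are thus counted in both gates. hoxb2a was higher in ectomesenchyme by 3.00 ± 0.84 on the log2 scale (SE, edgeR, adjusted p = 0.00776), 1 of the 2 members tested, where 14.4% of all genes were called higher. It passed the filter only through ectomesenchyme, so it could be called only higher and the call is a description. It had 87 UMIs in ectomesenchyme against 2 in pax1b cells at 24 hpf, 83 against 0 at 30 hpf, 17 against 0 in the second 18 hpf library and 1 against 0 at 20 hpf. The call was lost in DESeq2, without the 30 hpf library (2.02) and with at least 2 UMIs of each gate gene (1.86), a setting that left only the 24 hpf and second 18 hpf libraries. It was also lost when the 10% of cells with the highest doublet scores were left out (2.88), which left 2 of the 4 libraries. hoxa2b did not pass (0.62 ± 0.82, SE, adjusted p = 0.639), and 9 UMIs in 2 pax1b cells at 24 hpf stood beside 57 in 202 ectomesenchyme cells (20.1 CPM in ectomesenchyme against 44.8 CPM in pax1b cells). Of those 9 UMIs, 8 lay in 1 cell. At 20 hpf hoxa2b had 1 UMI in ectomesenchyme against 3 in 1 pax1b cell. Without the 30 hpf library its change was -0.76, and without that of 24 hpf it was 2.41 and passed.

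**Figure D5:**
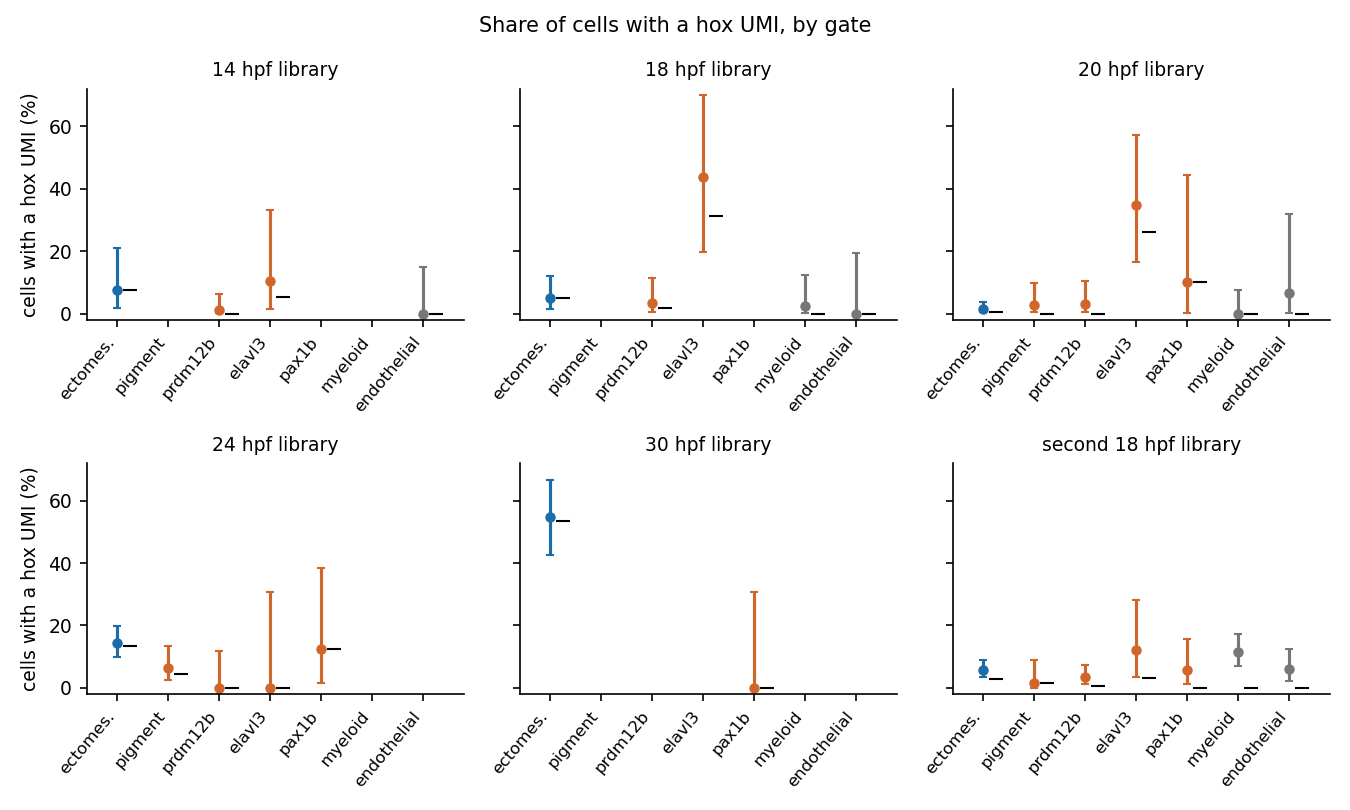
Share of cells with any hox UMI (dots, %) with 95% Clopper-Pearson intervals, by gate and library, for gates with at least 10 cells, and the share with a group 2 UMI (short black lines). Ectomesenchyme (blue) reaches 54.8% at 30 hpf, the elavl3 gate 43.8% at 18 hpf, and myeloid and endothelial cells (grey) hold no group 2 UMI. At 24 and 30 hpf the grey gates had fewer than 10 cells and are not drawn.

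Members of groups 3 to 13 lay in part outside the gates, to an extent that differed between members. Cells in no gate, 1289 of the 2845 cells used, held 35 of 43 UMIs of hoxb7a but 16 of 41 of hoxb8a and 4 of 21 of hoxb6b. Cells in no gate held 442 of all 1217 hox UMIs, in 101 of 1289 cells, and hoxb3a alone gave 104 of them. hoxb1b and hoxc1a, the group 1 members, gave 34 and 21 UMIs in all and none in ectomesenchyme. Among groups 3 and 4, hoxb3a gave 158 UMIs, of which 2 were in ectomesenchyme, hoxa4a 48, hoxc3a 36, hoxd4a 26 and hoxd3a 4. The 23 members of groups 5 to 13 gave 2 to 43 UMIs each, the most being 43 of hoxb7a and 41 of hoxb8a.

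Outside ectomesenchyme, a share of the Hox transcripts lay in few cells that carried several members at once. Cells with 3 or more different hox genes numbered 1 to 7 per library, and held 54.1%, 48.4%, 79.7%, 65.8%, 87.1% and 37.5% of the hox UMIs outside ectomesenchyme at 12, 14, 18, 20, 24 and 30 hpf and 58.9% in the second 18 hpf library. Those with at least 3 neuronal or neural progenitor markers were 2 of 5, 0 of 1, 6 of 6, 4 of 7, 3 of 6 and 0 of 1 at 12 to 30 hpf and 1 of 2 in the second 18 hpf library. A hox UMI was held by 51.6% of cells with those neural markers at 18 hpf (16 of 31), against 1.48% of the remaining cells outside ectomesenchyme (2 of 135). At 12, 14, 20, 24 and 30 hpf the shares were 10.3%, 13%, 22.7%, 15.8% and 16.7% of neural marker cells against 7.25%, 1.86%, 9.47%, 5.41% and 6.52% of the remaining cells. The gap was small in the second 18 hpf library, with 7.69% (7 of 91) and 6.57% (37 of 563). Counts of 13 members that overlap another gene in the RefSeq annotation of assembly GRCz12tu, hoxb3a and hoxa4a among them, are uncertain, while hoxa2b and hoxb2a overlap none.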

How the data were processed

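What the authors deposited are whole-number UMI counts for each gene in each cell, not normalized. The authors mapped reads to GRCz11 with Cell Ranger (version not given in the sources used here) and aggregated the timeline libraries. The number that ends a timeline barcode was read as the sample number. Whether counting used strand is not stated.

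A cell needed 500 detected genes and no more than 10% of its counts from mitochondrial genes, which removed 9 cells of the second 18 hpf library. Background cells had at least 3 UMIs over at least 2 myeloid or endothelial markers and were not ectomesenchyme. Neural cells had at least 3 neuron or neural progenitor markers. Doublets, called with Scrublet in scanpy 1.11.5 (20 components), were kept in the main values.

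Counts summed per library and gate or class (at least 10 cells) were tested with edgeR 4.0.16 (glmQLFit and glmQLFTest, TMM, filterByExpr, library as block, threshold 0.05 after Benjamini-Hochberg adjustment over all genes). Each SE was derived from the F statistic. No label says that libraries came from separate clutches, so p-values measure spread between these libraries only. Gate genes were left out of the tests. Other scaling, no low-count filter, DESeq2 1.42.0, no block, other gates, doublet removal and each library left out were the alternatives, and leaving out the 10% of cells with the highest doublet score was added after seeing the data. Named are members with at least 20 UMIs in ectomesenchyme or a call, and in the hox-positive comparison the 5 largest rises and falls with 1 direction in every library and the genes of 5 lists. Members, lists and gates were chosen with earlier results of these data known. The fits were tested on simulated data. These were drawn with a common dispersion for all genes and no difference between libraries beyond depth and the changes set, so recovery in the real data may be lower.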

Additional observations from a re-analysis of the deposited data

Results flagged for a closer look

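hoxb7a was found in cells that none of the comparisons use. The myeloid gate of the second 18 hpf library held 14 UMIs of it in 11 of 159 cells, above the 3 UMIs that a count of 0 allows, with at most 4 in 1 cell (3.21 CPM). The same gate held 1 UMI in 43 cells at 18 hpf. Ectomesenchyme of the second 18 hpf library held 1 UMI of hoxb7a in 316 cells, and its endothelial gate 3 UMIs in 102 cells.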

How the results depend on the processing

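Hox-free shares kept within their intervals in 40 of 42 alternatives, and at 20 hpf the share was 100% when cells were thinned to 4000 UMIs and when group 2 alone was counted. With no filter on low counts, genes called were 106 for Hox status, 1680, 962 and 3001 against elavl3, prdm12b and pax1b cells, and 420 for age. DESeq2 called 20 for Hox status, 280 against prdm12b cells and 228 for age. Without the library block 0, 984, 83, 23 and 790 were called for Hox status and against pigment, elavl3, prdm12b and pax1b cells. With at least 2 UMIs of each gate gene 1578, 323 and 922 were called against pigment, prdm12b and pax1b cells, the last on 2 of the 4 libraries. For elavl3 cells that setting could not be fitted, as 1 library had enough cells. Leaving cells of other gates out gave 104 for Hox status, but also dropped the second 18 hpf library, without which alone 74 were called. Leaving doublet calls out gave 1289 against pax1b cells, but also dropped the 20 hpf library, without which alone 1283 were called. The part of each choice was not separated. In addition, adding the second 18 hpf library gave 123 for age. Leaving out each library in turn gave 35 to 106 for Hox status, 1749 to 2651 against pigment, 209 to 732 against elavl3, 177 to 626 against prdm12b and 847 to 2118 against pax1b cells, and 19 to 71 for age. The main counts were 56, 2578, 638, 503, 1942 and 53 in that order. The change of hoxa2b against pax1b cells was -0.76 without the 30 hpf library, -0.17 with at least 2 UMIs of each gate gene and 2.41 without the 24 hpf library, and the cause was not tested. The library block pairs the classes or gates of a library. Only hoxa2b, hoxb2a and hoxb3a entered a filtered test. The gate comparisons held 17 of 32 members.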

Other observations

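Among the genes called lower in hox-positive ectomesenchyme were 7 chosen after their values were seen, which test no group of genes. col1a1a had 20.5 CPM in hox-positive against 138 CPM in hox-free cells at 24 hpf, 67.5 CPM in hox-positive against 203 CPM in hox-free cells at 30 hpf and 11.9 against 30.1 CPM for these classes in the second 18 hpf library, a change of -1.88 ± 0.25 on the log2 scale (SE, edgeR, adjusted p = 0.000333). col1a2 fell by 1.91 ± 0.30 (adjusted p = 0.00139), and the matrix genes tnn, tnc and postnb by 1.81, 1.47 and 0.85. Without thinning the change of col1a2 was -1.26 and was not called. cxcl12b, a chemokine, fell by 1.17 and cxcr4a, a chemokine receptor, by 1.58. These 7 genes moved the same way in all 3 libraries.

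efnb2a, which encodes a membrane-bound ephrin ligand, was chosen likewise and rose. It had 208 CPM in hox-positive against 52.0 CPM in hox-free cells at 24 hpf, 190 CPM in hox-positive against 49.6 CPM in hox-free cells at 30 hpf and 152 against 21.2 CPM for these classes in the second 18 hpf library, a change of 2.3 ± 0.20 (SE, edgeR, adjusted p = 3.21e-06). Signalling genes fsta, a follistatin, and fgf20b rose by 2.07 and 1.40, and the forkhead genes foxf2a and foxc1b by 2.25 and 1.03. Of these 5 genes, fsta and foxf2a did not have the same direction in all 3 libraries. prdm12b, the gene of a gate above, fell by 1.51 ± 0.34 (adjusted p = 0.0381), on 0, 0 and 18 UMIs in hox-positive against 13, 0 and 1351 UMIs in hox-free cells of the 24 hpf, 30 hpf and second 18 hpf libraries. Its call was lost with another scaling (RLE), in DESeq2 and without thinning, where the change was -0.40.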
